A study of Arabidopsis thaliana with 4 samples.

Results

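Seed storage, oil-body and late embryogenesis abundant (LEA) protein genes were examined in whole seedlings of Arabidopsis thaliana. The group was a list of named genes, not a cut on values, though earlier results of these data were known when it was chosen. It comprised 36 loci, out of 27383 single-locus identifiers in the table. It held 4 cruciferins, 5 2S albumins, 5 oleosins, 1 caleosin, 1 steroleosin, 18 LEA genes, the peroxiredoxin gene PER1 and the desiccation-responsive gene RD29B. Of these, 35 had a row of their own, and AT3G01570, an oleosin gene, lay in a row merged with 2 neighbouring loci.

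All seedlings carried the daz3tree1 genotype in the COL background, so that the controls were mutant too. They were 3 days old and dark-grown. The ethylene group (2 libraries) received 10 ppm ethylene in hydrocarbon-free air for 4 hours, and the air group (2 libraries) received hydrocarbon-free air alone for the same time. Wild-type seedlings were not analysed here, and the labels do not say whether libraries of a group came from separate cultures. The values were FPKM, fragment counts scaled to transcript length and library size, with 1 value for each group, so no SD and no value per library could be given and the depth is unknown.

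Storage proteins and oil bodies are laid down in the maturing embryo. Cruciferins are 12S globulins and 2S albumins are small sulphur-rich proteins, both kept in protein storage vacuoles. Oleosins, caleosins and steroleosins coat the oil bodies. LEA proteins are hydrophilic proteins that accumulate as the seed dries and also, in vegetative tissue, under drought or abscisic acid. The programme is driven by the B3 factors ABI3, FUS3 and LEC2, which bind RY elements, and by bZIP factors such as ABI5, which bind abscisic acid response elements (ABREs). It is shut down after germination, when the reserves are used by the seedling.

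Storage protein and oleosin genes made up most of the members that rose with ethylene, and LEA genes made up all of those that fell. CRA1 and CRC (cruciferins), OLEO2 (an oleosin) and M17 (counted here with the LEA genes) rose, and LEA7, AT3G15670 and AT3G17520 (LEA genes) fell. Calls were made where the p-value given by the authors, adjusted by the Benjamini-Hochberg method over 18696 named rows with a p below 1, was under 0.05. By this rule 4 of 28 tested members were higher, against 2.17% of all tested rows, and 3 were lower, against 4.18%. The median log2 fold change of the 28 was 0.05, and that of all tested rows was -0.02.

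The scale itself was uncertain. The 12 reference genes, housekeeping genes used as a check on scaling, had a median log2 fold change of 0.23, and 11 of them had a higher value in the ethylene group. Of these only EF1A was called, at 1269 FPKM with ethylene against 952.6 FPKM in air, where 2.17% of all tested rows were called higher. With that median set to 0, the median of all tested rows was -0.25, and 126 rows were called higher and 2437 lower in place of 405 and 781. On that scale the same 7 members kept their calls and RD29B was also called lower. Seedling markers were present, among them the root genes PYK10 (3868 FPKM with ethylene and 4093 FPKM in air) and CASP1 (176.3 FPKM with ethylene and 170.2 FPKM in air). Of 9 tested seedling markers 1 was called higher and 2 lower, against 2.17% and 4.18% of all tested rows. PORA and PORB, which encode protochlorophyllide oxidoreductases, were lower on every scale tried, at 1147 and 1490 FPKM with ethylene against 1873 and 2127 FPKM in air. LTP2, a lipid transfer protein gene, was higher, at 34510 FPKM with ethylene against 24690 FPKM in air, and lost its call on the reference gene scale. The part of these markers in the members' changes was not tested. WOX5, a marker of the root quiescent centre, was listed at 0 with ethylene and had 0.128 FPKM in air. The 2 mutated genes were near 0, with TREE1 at 0.327 FPKM in the ethylene group and listed at 0 in air, and DAZ3 listed at 0 in both.

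**Figure D1:**
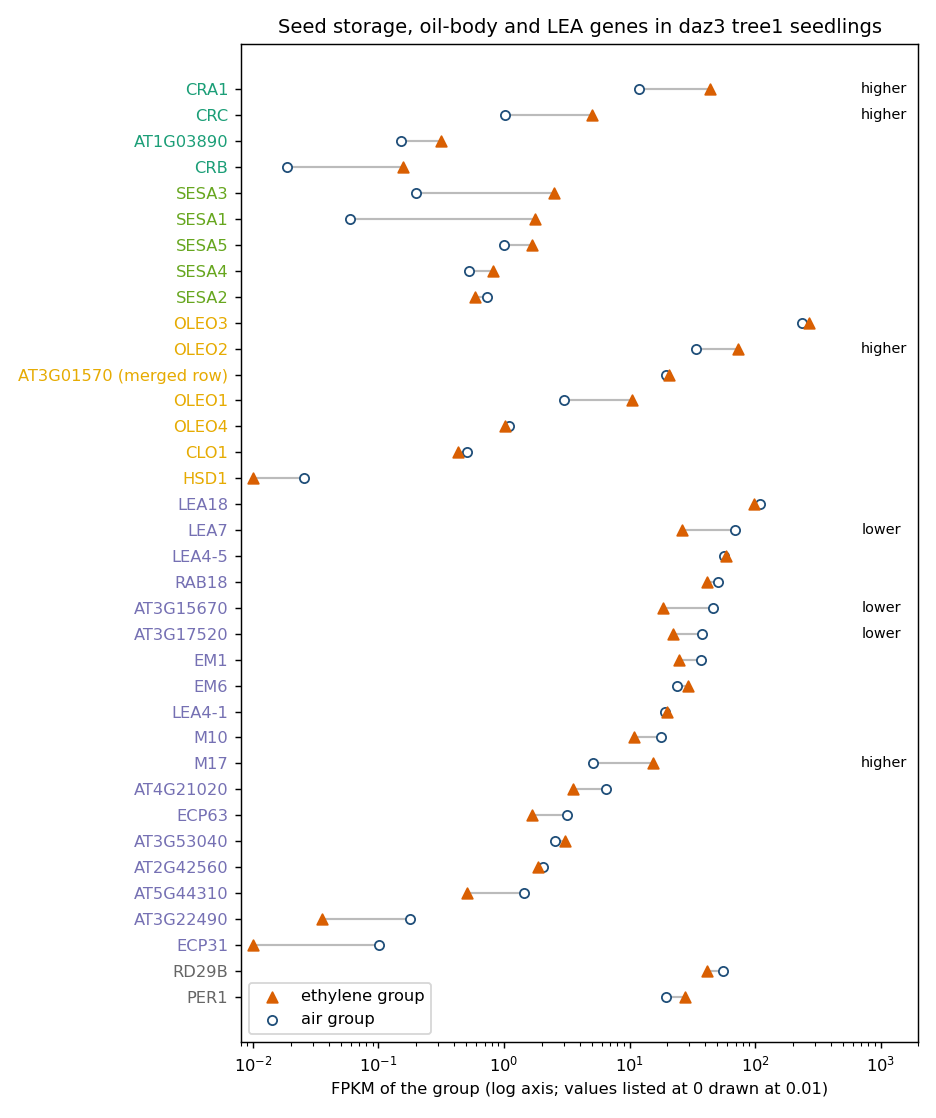
FPKM of the ethylene group (triangles) and the air group (open circles) for the 36 genes on a log axis, with label colours for cruciferins, 2S albumins, oil-body, LEA and the remaining genes. Called members are marked at the right; the cruciferin CRA1 stood at 43.6 FPKM with ethylene against 11.8 FPKM in air and the LEA gene LEA7 at 26.3 FPKM with ethylene against 69.6 FPKM in air, while OLEO3, at 267 FPKM with ethylene and 236.5 FPKM in air, was the most abundant member and was not called.

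The upstream sequences of 6 of the 7 called members are shown because the RY and ABRE elements are those bound by the factors of the seed programme. Each is the 250 bases before the annotated gene start, 5′ to 3′ on the strand of the gene, read by locus from the RefSeq sequence of TAIR10.1. Capitals mark the RY core CATGCA and the ABRE core ACGTG, each on either strand, so that CACGT is the ABRE core read on the other strand. The first 3 belong to genes that rose.
CRA1: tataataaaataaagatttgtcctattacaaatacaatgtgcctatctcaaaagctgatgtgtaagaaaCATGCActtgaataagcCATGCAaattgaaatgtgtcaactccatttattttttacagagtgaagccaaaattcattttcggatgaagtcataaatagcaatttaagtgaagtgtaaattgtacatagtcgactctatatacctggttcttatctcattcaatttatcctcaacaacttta
CRC: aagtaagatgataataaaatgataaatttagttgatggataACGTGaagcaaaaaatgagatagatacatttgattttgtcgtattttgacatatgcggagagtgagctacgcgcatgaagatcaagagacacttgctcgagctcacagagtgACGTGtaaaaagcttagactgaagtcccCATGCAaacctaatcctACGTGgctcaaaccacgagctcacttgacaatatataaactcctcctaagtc
M17: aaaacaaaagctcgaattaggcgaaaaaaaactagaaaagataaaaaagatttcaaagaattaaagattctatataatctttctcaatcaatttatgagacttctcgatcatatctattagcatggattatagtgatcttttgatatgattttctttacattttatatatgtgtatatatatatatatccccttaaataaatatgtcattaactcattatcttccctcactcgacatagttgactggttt
In TAIR10.1 these windows lie at chr5:17758337-17758586 (minus strand) for CRA1, chr4:14087306-14087555 (plus strand) for CRC and chr2:17206202-17206451 (plus strand) for M17. None of them overlaps another annotated gene.

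The other 3 belong to the LEA genes that fell.
LEA7: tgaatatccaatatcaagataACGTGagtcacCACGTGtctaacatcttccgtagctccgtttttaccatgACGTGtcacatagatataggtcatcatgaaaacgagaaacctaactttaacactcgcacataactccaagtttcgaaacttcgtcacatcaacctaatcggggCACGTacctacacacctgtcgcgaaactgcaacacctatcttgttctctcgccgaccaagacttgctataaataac
AT3G15670: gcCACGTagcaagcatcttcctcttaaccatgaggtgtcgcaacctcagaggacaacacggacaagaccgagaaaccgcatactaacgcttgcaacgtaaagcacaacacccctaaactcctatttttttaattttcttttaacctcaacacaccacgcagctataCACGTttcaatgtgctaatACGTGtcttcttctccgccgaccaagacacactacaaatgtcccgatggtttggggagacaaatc
AT3G17520: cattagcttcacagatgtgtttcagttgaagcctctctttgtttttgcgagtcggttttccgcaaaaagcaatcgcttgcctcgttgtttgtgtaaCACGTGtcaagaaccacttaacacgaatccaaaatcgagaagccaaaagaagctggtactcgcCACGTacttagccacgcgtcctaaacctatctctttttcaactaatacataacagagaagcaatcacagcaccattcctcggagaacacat
They lie at chr1:19619474-19619723 (plus strand) for LEA7, chr3:5310989-5311238 (minus strand) for AT3G15670 and chr3:6000448-6000697 (minus strand) for AT3G17520, and none overlaps another annotated gene.

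CRA1 had 2 RY cores and no ABRE core in the window. CRC had 1 RY core and 3 ABRE cores, and M17 had neither. LEA7, AT3G15670 and AT3G17520 had no RY core and 5, 3 and 3 ABRE cores. Neither element separated the genes that rose from those that fell, since CRC had as many ABRE cores as AT3G15670 and AT3G17520, and M17, like the 3 genes that fell, had no RY core. A G-box, CACGTG, holds the ABRE core on both strands and so counts as 2 of them, and LEA7 and AT3G17520 had 1 G-box each. No match says only that these letters are not in the window.

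Over the 35 members examined for sequence an RY core was found in 19 windows (54.3%), against 8.43% of 27442 protein-coding promoters of the same length. It was found in all 5 2S albumins and all 4 oleosins examined, in 3 of 4 cruciferins and in 5 of the 15 LEA genes other than EM1, EM6 and RAB18. SESA3 held 7 copies and SESA4 held 6, some of which overlap. An ABRE core was found in 29 of 35 windows (82.9%), against 22.9% of all promoters. The G-box was found in 20 of 35 (57.1%) against 6.49%, and the GCC box GCCGCC, an element bound by ethylene response factors, in 0 of 35 against 1.87%. These shares describe the sequence and were not tested.

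Set beside the response, the element shares were compared in the 17 tested members that were examined for sequence, had a row of their own and had a mean of both groups of at least 5 FPKM, a limit chosen after the values were seen because low genes can enter the test through 1 group alone. Of 5 such members with an RY core, 4 had a higher value with ethylene and 1 a lower one, with a median log2 fold change of 0.17. Of 12 without it, 4 had a higher and 8 a lower value, with a median of -0.51. A limit on the mean still admits genes through 1 group. OLEO1, counted as higher with an RY core, had only 2.99 FPKM in air. AT4G21020, counted as lower without it, had only 3.54 FPKM with ethylene. The counts and medians rest partly on these genes. Of 15 with an ABRE core, 6 had a higher and 9 a lower value, with a median of -0.27. Of these 15, 0 were called higher and 3 lower, against 2.17% and 4.18% of all tested rows. The 2 without it, CRA1 and M17, were called higher. The limit left out CRC, called higher with 3 ABRE cores, and OLEO4, not called and with none. Without the limit, 1 of 24 tested members with an ABRE core and 2 of 3 without it were called higher. Among tested genes other than the members, those with an RY core had a median of -0.01 (1314 genes) and those without it -0.03 (15593 genes). Of these genes 2.74% with and 2.14% without the element were called higher, and 4.49% with and 4.31% without it were called lower. The element and the gene class go together among the members, and their parts cannot be told apart.

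**Figure D2:**
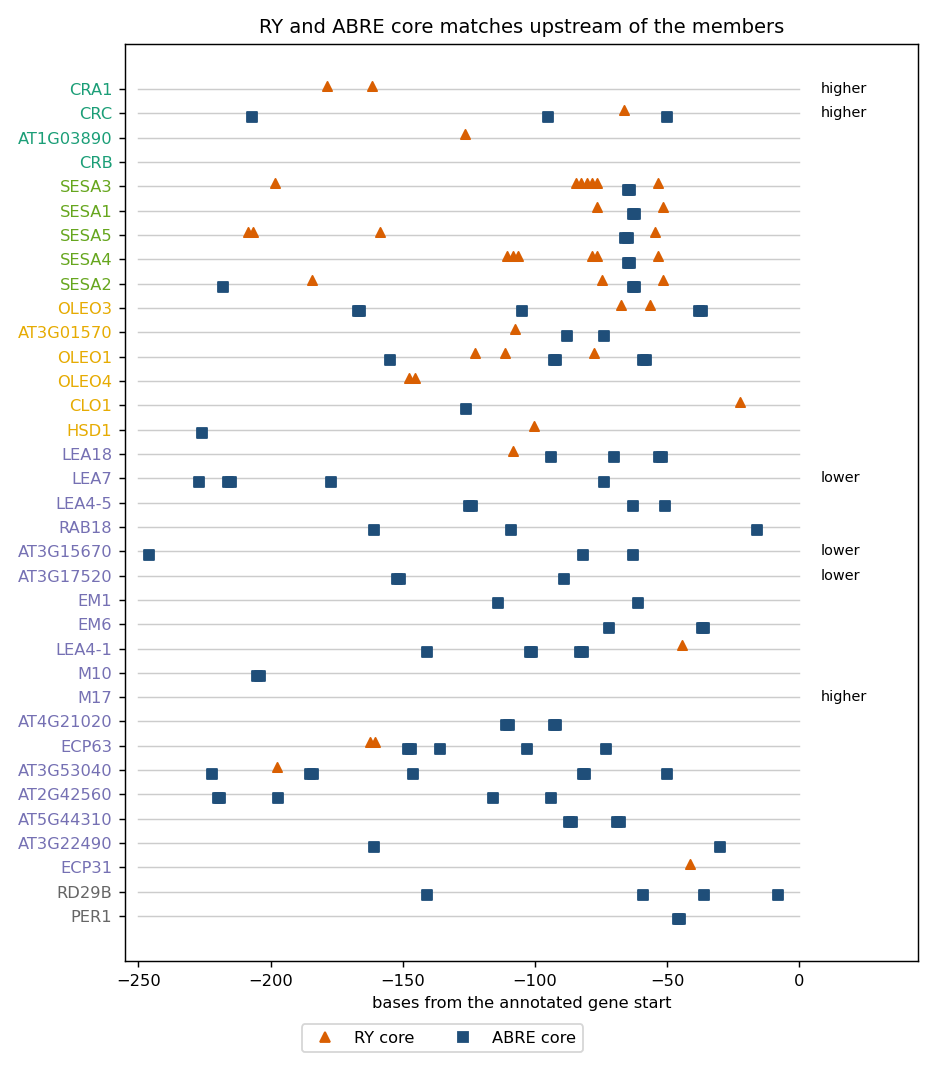
Position of RY core matches (triangles) and ABRE core matches (squares) in the 250 bases before the annotated start of 35 members, with genes in rows and bases from the gene start on the horizontal axis. The members that fell show squares and no triangles, CRA1 shows triangles and no squares, CRC shows both, and M17 shows neither.

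Among the 12S cruciferins, CRA1 and CRC rose. CRA1, which encodes the main cruciferin A subunit, had 43.6 FPKM with ethylene against 11.8 FPKM in air. Its log2 fold change was 1.89 (3.70-fold, adjusted p = 0.00227, computed here from the p in the authors' deposited table). Its deposited p was the smallest the authors' deposited table holds, 5e-05, so no interval was derived for it. CRC had 5.04 FPKM with ethylene against 1.02 FPKM in air, a log2 fold change of 2.31. The 95% interval implied by the p was 0.92 to 3.70 (adjusted p = 0.0237, computed here from the p in the authors' deposited table). The CRC call was lost when the trend of fold change with GC content was subtracted (log2 fold change 1.88). CRC has a GC content of 50.6%, against a median of 41.3% for tested single-locus rows.

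The remaining cruciferin genes were hardly detected. CRB had 0.157 FPKM with ethylene and 0.0186 FPKM in air, and its neighbour AT1G03890 had 0.314 FPKM with ethylene and 0.152 FPKM in air. Both were untested by the authors. CRB shares 73.9% of its coding bases with CRA1, with a longest identical run of 25 bases, yet its level in the ethylene group was far under that of CRA1.

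The 2S albumins, whose genes SESA1 to SESA4 stand side by side on chromosome 4, were low in both groups. SESA1 had 1.76 FPKM with ethylene and 0.0598 FPKM in air. SESA3 had 2.52 FPKM with ethylene and 0.200 FPKM in air. Their log2 fold changes of 4.88 and 3.65 came with implied intervals of -3.46 to 13.2 and -1.09 to 8.39, so neither was called.

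SESA5, on chromosome 5, had 1.67 FPKM with ethylene and 1.002 FPKM in air, and SESA4 had 0.821 FPKM with ethylene and 0.524 FPKM in air. SESA2 had 0.584 FPKM with ethylene and 0.731 FPKM in air, and was not tested. All 4 tested albumins thus had the larger value with ethylene. Genes as low in air as SESA1 and SESA3 may have entered the test only through their other group. SESA2 and SESA3 share 89.7% of their coding bases, with an identical run of 49 bases, so reads may have been split between them. Levels of single genes among SESA1 to SESA4 may be uncertain for that reason, while SESA5 shares no run longer than 14 bases with them.

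Summed over the 9 storage protein genes, the level was 56.4 FPKM with ethylene and 15.5 FPKM in air. CRA1 made up most of both sums.

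Among the oil-body genes, OLEO2 rose and the most abundant gene was near its air level. OLEO2 had 73.5 FPKM with ethylene against 34.1 FPKM in air. Its log2 fold change was 1.11 (2.16-fold, adjusted p = 0.00227, computed here from the p in the authors' deposited table). OLEO3 had 267 FPKM with ethylene and 236.5 FPKM in air, a log2 fold change of 0.17 with an implied interval of -0.12 to 0.47. It ranked 543rd of the tested rows in the ethylene group and 601st in the air group, the highest place of any member. A change of OLEO3 as large as that of OLEO2 lay outside its interval.

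OLEO1, which encodes the major seed oleosin, had 10.4 FPKM with ethylene and 2.99 FPKM in air. Its log2 fold change of 1.79 was in the range of the called genes, with an implied interval of 0.43 to 3.15. OLEO1 was not called (adjusted p = 0.104, computed here from the p in the authors' deposited table). OLEO4 was low, at 1.02 FPKM with ethylene and 1.09 FPKM in air. It is the closest relative of OLEO2 among the oleosins here (64.4% of coding bases, longest identical run 17 bases). The merged row with AT3G01570 had 20.6 FPKM with ethylene and 19.5 FPKM in air and was not called.

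The caleosin gene CLO1 had 0.428 FPKM with ethylene and 0.508 FPKM in air, and the steroleosin gene HSD1 was listed at 0 with ethylene and had 0.0255 FPKM in air. Neither was tested. Both groups thus held oleosin transcripts with next to none of CLO1 and HSD1. Their relatives outside the members were present and not called. CLO4 had 13.45 FPKM with ethylene and 14.62 FPKM in air, and HSD5 had 13.94 FPKM with ethylene and 14.46 FPKM in air. A merged row with CLO3 had 167.2 FPKM with ethylene and 173.7 FPKM in air. The sum of the 6 oil-body genes with a row of their own was 352.3 FPKM with ethylene and 275.2 FPKM in air.

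**Figure D3:**
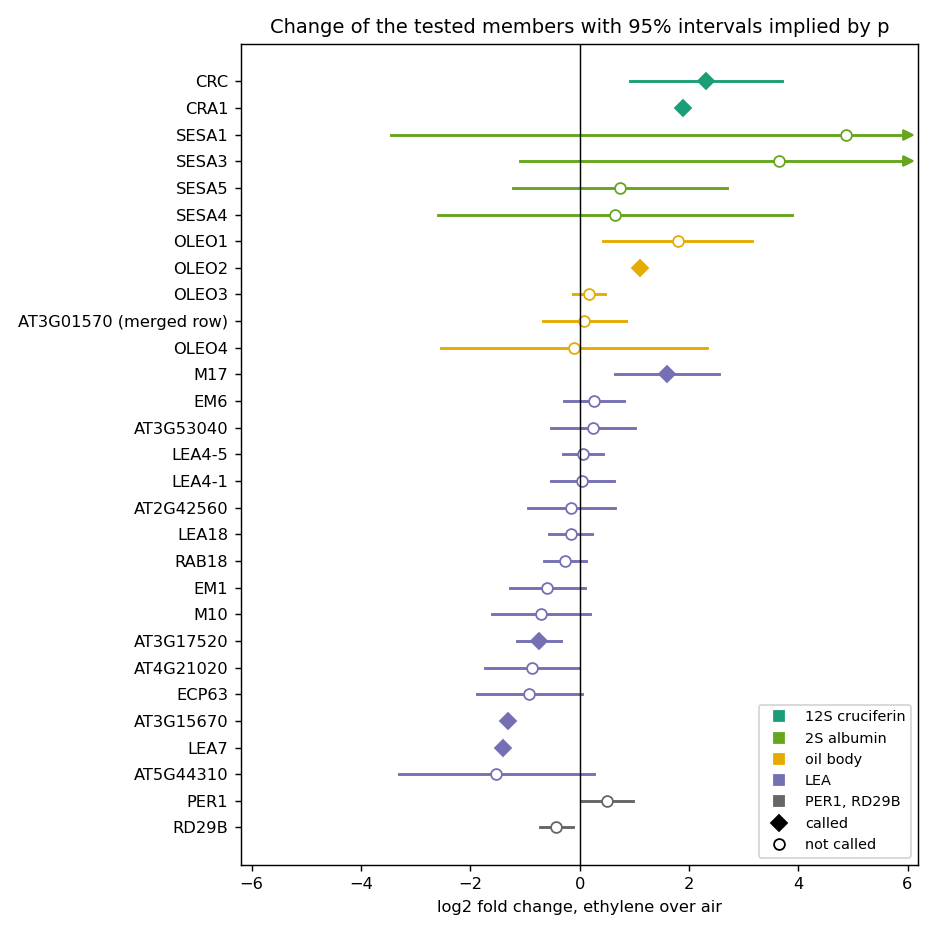
Log2 fold change, ethylene over air, of the 29 tested rows that hold a member, grouped by class, with 95% intervals implied by the deposited p under a normal approximation (arrowheads mark intervals that leave the axis). Filled diamonds were called and open circles were not; called genes without an interval had the smallest deposited p. The 4 albumins lie right of 0 with intervals that include 0, and the LEA genes lie on both sides, 11 of 16 of them left of 0.

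Among 16 tested LEA members 3 fell and 1 rose, against 2.17% of all tested rows called higher and 4.18% called lower. The other 12 were not called. The median log2 fold change of the 16 was -0.43, with 11 lower and 5 higher values. Of the 18 LEA genes, 12 had at least 5 FPKM in the group with the larger value. Low genes such as AT5G44310 and ECP63, counted as lower, may have entered the test through their air group alone. AT3G53040, also low, was counted as higher. LEA7, a group 3 LEA gene, had 26.3 FPKM with ethylene against 69.6 FPKM in air. The log2 fold change of LEA7 was -1.40 (2.64-fold lower, adjusted p = 0.00227, computed here from the p in the authors' deposited table). Its relative AT3G15670, which shares 59.9% of coding bases with it, had 18.5 FPKM with ethylene against 46.1 FPKM in air. The log2 fold change of AT3G15670 was -1.32 (adjusted p = 0.00227, computed here from the p in the authors' deposited table). AT3G17520 had 22.3 FPKM with ethylene against 37.4 FPKM in air, a log2 fold change of -0.75. Its implied interval was -1.15 to -0.34 (adjusted p = 0.0105, computed here from the p in the authors' deposited table). These 3 calls held on every scale tried.

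M17 was the LEA member called higher. It had 15.3 FPKM with ethylene against 5.09 FPKM in air, a log2 fold change of 1.59. Its implied interval was 0.64 to 2.54 (adjusted p = 0.0229, computed here from the p in the authors' deposited table). The call was lost when the GC trend was subtracted (log2 fold change 1.07), and its GC content of 52.2% was the highest of the members. Its neighbour on chromosome 2, M10, had 10.9 FPKM with ethylene and 17.7 FPKM in air and was not called (log2 fold change -0.71, interval -1.60 to 0.19).

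The abundant LEA genes of group 4, linked to tolerance of water deficit, were close to their air levels. LEA18 had 97.8 FPKM with ethylene and 109.8 FPKM in air. LEA4-5 had 58.6 FPKM with ethylene and 56.0 FPKM in air, and LEA4-1 had 19.9 FPKM with ethylene and 19.2 FPKM in air. Their log2 fold changes were -0.17, 0.06 and 0.05, and the widest of the 3 implied intervals, that of LEA4-1, ran from -0.53 to 0.62. The dehydrin gene RAB18, a common marker of abscisic acid, had 41.6 FPKM with ethylene and 50.3 FPKM in air (interval -0.66 to 0.11). A fall the size of that of LEA7 lay outside all 4 intervals.

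EM1 and EM6 encode group 1 LEA proteins, the early methionine-labelled proteins of the dry seed. EM1 had 24.5 FPKM with ethylene and 36.9 FPKM in air, and EM6 had 29.0 FPKM with ethylene and 24.1 FPKM in air. Neither was called, with implied intervals of -1.28 to 0.10 for EM1 and -0.28 to 0.82 for EM6.

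The other LEA members were low. AT4G21020 had 3.54 FPKM with ethylene and 6.49 FPKM in air, with an interval of -1.73 to -0.02. ECP63 had 1.67 FPKM with ethylene and 3.16 FPKM in air, with an interval of -1.88 to 0.04. AT5G44310 had 0.505 FPKM with ethylene and 1.45 FPKM in air in one row, and was listed at 0 in both groups in another. None of these was called.

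AT3G53040 had 3.04 FPKM with ethylene and 2.56 FPKM in air, and AT2G42560 had 1.85 FPKM with ethylene and 2.05 FPKM in air. The neighbouring seed maturation genes AT3G22490 and ECP31 were close to 0. AT3G22490 had 0.0355 FPKM with ethylene and 0.180 FPKM in air, and ECP31 was listed at 0 with ethylene and had 0.101 FPKM in air. Both were untested. Summed over the 18 LEA genes, the level was 375.4 FPKM with ethylene and 488.3 FPKM in air.

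PER1, which encodes a seed peroxiredoxin, had 27.7 FPKM with ethylene and 19.6 FPKM in air, and the implied interval of its log2 fold change was 0.02 to 0.97, and it was not called. RD29B, a target of abscisic acid signalling with several ABREs in its promoter, had 41.4 FPKM with ethylene and 55.5 FPKM in air. Its log2 fold change was -0.42 (interval -0.72 to -0.13, adjusted p = 0.0682, computed here from the p in the authors' deposited table). RD29B was called lower both with the reference genes set to a median of 0 and with the GC trend subtracted (log2 fold change -0.60). The sums of the 35 members with a row of their own were 853.2 FPKM with ethylene and 854.1 FPKM in air, nearly equal although the class sums differed. In whole seedlings, fewer cells of a type and less RNA per cell cannot be told apart.

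**Figure D4:**
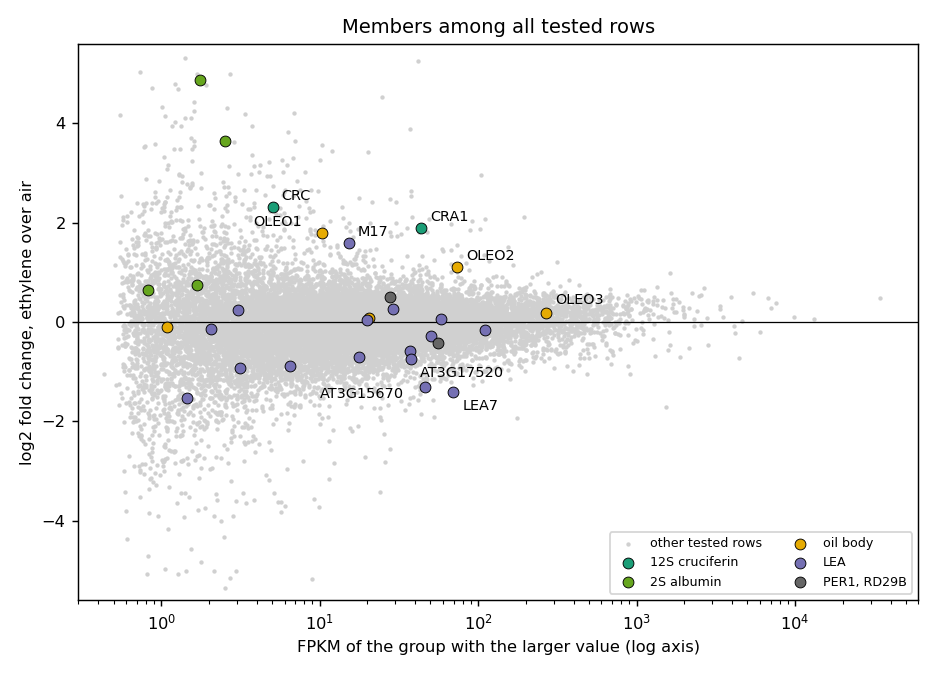
Log2 fold change, ethylene over air, against the FPKM of the group with the larger value (log axis) for all tested rows (grey; a few rows beyond the axes are not drawn) and for the tested members in the colour of their class. CRA1, OLEO2 and M17 lie above 0 and LEA7 below it, but not beyond all other rows. Genes outside the members such as TIP3;1 (1.82) and AT5G66780 (-2.55) also changed. SESA1 and SESA3 have large fold changes at levels where the cloud is wide.

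Related genes were described from lists outside the members. Of 25 tested LEA family genes that are not members, 0 were called higher and 8 lower, against 2.17% of all tested rows called higher and 4.18% called lower. The median log2 fold change was -0.50, with 19 lower and 6 higher values. Low genes are among them and may have entered the test through 1 group alone. AT5G60530 had 0.0913 FPKM with ethylene and 1.395 FPKM in air, and AT5G27980 had 0.92 FPKM with ethylene and 0.150 FPKM in air. Of the 35 listed genes, 17 had at least 5 FPKM in the group with the larger value. LTI30, a dehydrin, had 10.8 FPKM with ethylene against 32.8 FPKM in air (log2 fold change -1.60). AT5G66780 had 4.76 FPKM with ethylene against 27.9 FPKM in air (log2 fold change -2.55).

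The dehydrins COR47, ERD10 and ERD14 also fell, with log2 fold changes of -0.72, -0.85 and -0.42. AT1G54410 had 480.0 FPKM with ethylene against 886.5 FPKM in air, and AT2G23120 had 378.5 FPKM with ethylene against 684.2 FPKM in air. AT2G44060 had 166.4 FPKM with ethylene against 225.2 FPKM in air. With the GC trend subtracted, or the median of tested rows set to 0, 6 of the 8 kept their calls and ERD14 and AT2G44060 did not. With the reference genes set to a median of 0 the count was 9. SAG21, LEA14 and AT3G02480 were abundant LEA genes that were not called, with log2 fold changes of 0.17, -0.10 and -0.24.

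Among 8 tested genes for the making and breakdown of protein bodies, 1 was called higher and 0 lower, against 2.17% of all tested rows called higher and 4.18% called lower. TIP3;1, an aquaporin of the protein storage vacuole, had 27.6 FPKM with ethylene against 7.84 FPKM in air. The log2 fold change of TIP3;1 was 1.82 (adjusted p = 0.00227, computed here from the p in the authors' deposited table). Its relative TIP3;2 had 36.5 FPKM with ethylene and 22.2 FPKM in air, just short of the threshold (log2 fold change 0.71, interval 0.24 to 1.19), and was called higher with the median of tested rows set to 0. The sorting receptor gene VSR1 had 69.0 FPKM with ethylene and 86.0 FPKM in air and was called lower only on the reference gene scale among those tried. The proteases PASPA1 and RD21A, and the vacuolar processing enzyme GAMMA-VPE, were not called and had log2 fold changes of 0.19, 0.12 and 0.25. Of 10 tested oil-body genes outside the members, 1 was called higher, against 2.17% of all tested rows. This was LDAP2, at 1013 FPKM with ethylene against 700.4 FPKM in air, and its call was lost on the reference gene scale and with the GC trend subtracted. LDAP3, LDAP1 and PUX10 had log2 fold changes of 0.06, 0.02 and -0.18.

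The regulators of the seed programme gave few values. Of 14 listed, 5 were tested in rows of their own and 0 were called by this adjustment, with 0 also at an unadjusted p under 0.05. Over all tested rows, 2.17% were called higher and 4.18% lower. ABI5 had 10.9 FPKM with ethylene and 9.88 FPKM in air. ABI3 had 1.15 FPKM with ethylene and 0.566 FPKM in air, with an interval of -0.22 to 2.27. WRI1 had 0.951 FPKM with ethylene and 2.12 FPKM in air, with an interval of -2.44 to 0.125. Of the 5 tested, 2 had a higher and 3 a lower value with ethylene. ABI4, untested, had 0.4485 FPKM with ethylene and 0.6207 FPKM in air. A merged row with L1L had 4.06 FPKM with ethylene and 7.19 FPKM in air and was not called. LEC1, LEC2 and BZIP67 were listed at 0 in both groups, and FUS3 had 0.210 FPKM with ethylene and 0.124 FPKM in air. BZIP25, BZIP10 and ABI5 were the most abundant of the tested regulators, and BZIP25 and BZIP10 had log2 fold changes of -0.29 and -0.07. BZIP25 was called lower with the reference genes set to a median of 0.

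Of 12 tested repressors that keep the seed programme off in seedlings, 1 was called lower, against 4.18% of all tested rows. This was PKL, a chromatin remodeller. It had 11.9 FPKM with ethylene against 17.2 FPKM in air, a log2 fold change of -0.53 with an interval of -0.87 to -0.19, and the call was lost when the GC trend was subtracted or the median of tested rows was set to 0. EMF2, HDA6 and ASIL1 were not called, at log2 fold changes of 0.28, 0.08 and -0.34. SWN, a histone methyltransferase gene, had 10.0 FPKM with ethylene and 13.7 FPKM in air and was called lower, with PKL, on the reference gene scale.

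**Figure D5:**
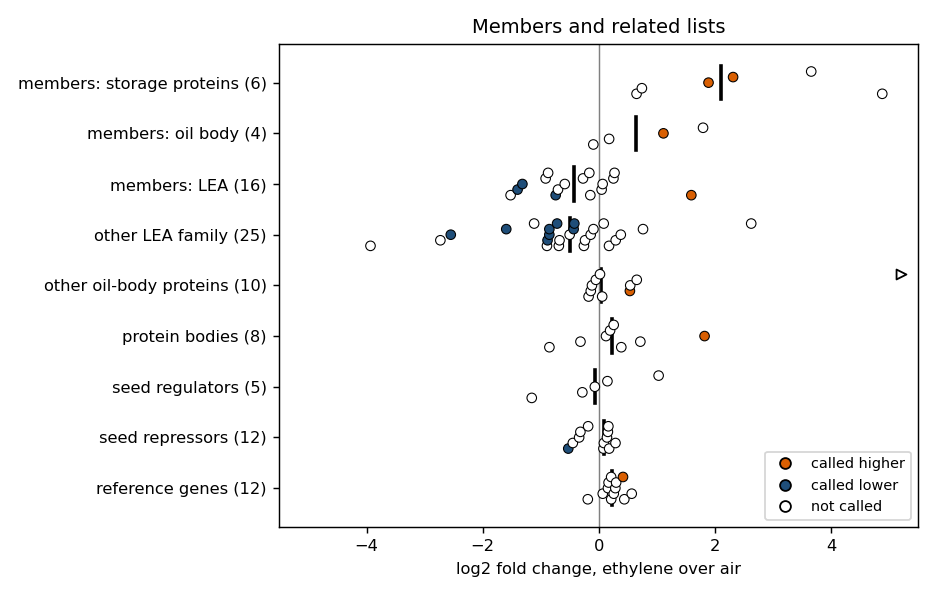
Log2 fold change, ethylene over air, of the tested genes in 3 classes of members and in 6 related lists, 1 point a gene, with the number tested in brackets and the median as a bar; vertical scatter within a list has no meaning. Filled points were called, and the arrow marks OBL1, whose air value was close to 0. The member and non-member LEA lists have medians of -0.43 and -0.50, and both hold low genes that may have entered the test through 1 group alone. Of the 6 storage protein points 4 are albumins at low levels, of which none was called.

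Markers of seed remains and of ungerminated seed were measured beside these results. Of 8 such markers, 4 were tested and all 4 had a higher value with ethylene. One of them, EPR1, was low in air and may have entered the test only through its ethylene group. The untested markers TT10 and DOG1 had the lower value with ethylene. The summed level of the 8 was 106.8 FPKM with ethylene and 67.9 FPKM in air, and TIP3;1, TIP3;2 and MUM4 made up most of both sums. TIP3;1 was the 1 called, against 2.17% of all tested rows called higher, and TIP3;1 and TIP3;2 also stand in the protein body list. EPR1, an extensin-like gene of the endosperm, had 3.87 FPKM with ethylene and 0.773 FPKM in air and was not called (log2 fold change 2.32, interval 0.72 to 3.92). MUM4, a mucilage gene also expressed outside the seed coat, had 38.8 FPKM with ethylene and 36.8 FPKM in air, a direction that turned when the reference genes were set to a median of 0.

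The seed coat genes BAN and TT16 were listed at 0 in both groups, TT10 had 0.0179 FPKM with ethylene and 0.103 FPKM in air, and the dormancy gene DOG1 was listed at 0 with ethylene and had 0.0894 FPKM in air. The part of these markers in the rise of CRA1, CRC and OLEO2 was not tested.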

How the data were processed

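The 4 RNA samples were isolated with Trizol and sequenced from NEB library preparations, per the labels' protocols. The submitters' processing notes name TopHat2 2.0.9, Cuffdiff 2.0.1 and the TAIR10 build, and settings are not stated there. The FPKM values, deposited by the authors, are 1 per group and were taken as FPKM because Cuffdiff is named. The p-value in the authors' deposited table is unadjusted, with a smallest value of 5e-05.

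Log2 fold changes were computed here as ethylene over air, with no pseudocount. The deposited p-values were adjusted by the Benjamini-Hochberg method over all 18696 named rows with a p below 1, as the only test available with 1 value per group. Such p-values may measure only technical spread. Rows without a gene name (243, with 88.9% of the summed ethylene column and 86.0% of the air column) stayed out. Intervals were implied from p under a normal approximation. The GC trend was a lowess fit (span 0.3) on GC content of TAIR10.1 transcripts for rows with at least 1 FPKM. Motifs, coding identity and neighbours came from TAIR10.1, while the table gives no coordinates. The upstream sequence of 1 member is not reported here.

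The members, the 8 lists and the alternatives were chosen with earlier results of these data known. Every member was named, as were the called genes of the related lists and up to 3 of their other abundant genes. Seed and seedling markers and low regulators were named beyond that, after their values were seen. So were some low LEA family genes and the relatives of CLO1 and HSD1. Software was Biopython 1.88, statsmodels 0.14.6, scipy 1.17.1, pandas 2.3.3, matplotlib 3.10.9, numpy 2.4.6 and Python 3.11.15.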

Additional observations from a re-analysis of the deposited data

How the results depend on the processing

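No paired analysis was possible because the table holds 1 value per group, and for the same reason no replicate could be left out. With a threshold of 0.01, 190 rows were called higher and 409 lower, and 2 members, CRA1 and OLEO2, were higher; with a threshold of 0.1, 631 rows were higher. With the reference genes set to a median of 0, 126 rows were higher and 2437 lower, and the median log2 fold change of the 28 tested members was -0.18. With the GC trend subtracted 2 members were higher. The cause of the shifts under rescaling was not tested. The calls of CRA1, OLEO2, LEA7 and AT3G15670 held under every setting tried. The call of AT3G17520 was lost only at the threshold of 0.01, and those of CRC and M17 at that threshold and with the GC trend subtracted. A filter at 1 or 5 FPKM, inclusion of rows with a p of 1, single-locus rows, centring on the median of tested rows and counting the merged row left 4 members higher and 3 lower. The median implied standard error of the tested members was 0.40 on the log2 scale. At that error and the largest p called, a gene would have needed a log2 change of about 1.19 to be called.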
